A study of Mus musculus with 12 samples.

Results

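The miRNAs miR-9, miR-128, miR-219 and miR-338 are best known from the nervous system, and here they were followed through mouse skin and ultraviolet-induced skin tumours. The members were chosen by name: both arms of miR-9 and miR-338 and the named arms of the others, listed as mmu-mir-338-3p, mmu-mir-338-5p, mmu-mir-219-5p, mmu-mir-9-5p, mmu-mir-9-3p and mmu-mir-128-3p, which are 6 of the table's 1251 rows. Small RNA had been sequenced in 12 libraries of C57Bl6 mice. Cutaneous squamous cell carcinoma (SCC) came from 4 TAp63-/- samples, called knockout or KO, and from 2 wild-type (WT) samples. These tumour mice were more than 35 weeks old and had received chronic ultraviolet radiation (UVR), 2.5 kJ per square metre at each of 3 exposures a week. Dorsal skin came from 3 knockout and 3 WT samples of untreated mice aged 4 weeks. TAp63 isoforms of p63, a transcription factor related to p53, contain a transactivation domain. The labels do not say how the knockout allele was made, or that each sample is a separate mouse, so the p-values rest on the spread among samples, and part of that spread may be technical. Tumour, UVR and age change together between SCC and skin and cannot be told apart.

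A miRNA is a short RNA that guides Argonaute proteins to messenger RNAs, mainly by pairing of its seed, bases 2 to 8, and lowers their output. Each hairpin precursor yields a guide from one arm and a usually scarcer product from the other. miR-9 is a miRNA of neural progenitors, where it acts on regulators of neurogenesis. miR-128 is abundant in neurons of the brain. miR-219 and miR-338 rise as oligodendrocytes, the myelin-forming glia of the central nervous system, mature, and they promote that step. Outside the nervous system these miRNAs are found at lower levels, and skin holds nerve endings, Schwann cells and melanocytes, which share a neural crest origin.

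The mature sequences are shown because the 6 members are separate molecules with separate seeds and not members of 1 seed family. They are RefSeq entries on GRCm38.p6, given 5′ to 3′ with the seed in capitals.
miR-338-3p: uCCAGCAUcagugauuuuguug
miR-338-5p: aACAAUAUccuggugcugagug
miR-219-5p: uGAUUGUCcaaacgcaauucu
miR-9-5p: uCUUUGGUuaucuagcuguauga
miR-9-3p: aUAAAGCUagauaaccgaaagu
miR-128-3p: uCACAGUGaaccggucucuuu
All 6 members had a RefSeq entry, with miR-219-5p under its later name miR-219a-5p. For each of the 6 seeds, 0 other mature mouse miRNAs in that RefSeq table had the same 7 bases.

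The loci bear on which gene a value can be assigned to. miR-338 has 1 hairpin, chr11:120014765-120014862 on the minus strand, inside an intron of Aatk on the same strand. Mature miR-128-3p comes from 2 hairpins, in introns of R3hdm1 (chr1:128202361-128202430, plus strand) and Arpp21 (chr9:112118636-112118711, minus strand). miR-9-5p comes from 3 hairpins. They lie in an intron of the long intergenic noncoding RNA Gm3764 (chr3:88215598-88215686), in an exon of C130071C03Rik (chr13:83738814-83738885) and in an intron of Mir9-3hg (chr7:79505264-79505353), all on the plus strand. miR-219-5p comes from 2 hairpins, in an exon of the noncoding RNA Gm26940 (chr17:34024983-34025092, minus strand) and at chr2:29845631-29845727 on the minus strand, where GENCODE M21 has no host gene. Values of miR-9, miR-128 and miR-219 therefore sum over loci that cannot be separated, while those of miR-338 belong to 1 locus.

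All values are the authors' normalized log2 values, in which the libraries share nearly the same set of values and the smallest possible value, the floor, is 3.32, a linear value of 10. Depth per library is unknown, and the number of miRNAs above the floor was 432 to 545 in KO SCC, 402 to 420 in WT SCC, 370 to 465 in KO skin and 390 to 433 in WT skin. WT SCC replicate 2 lay nearest to skin on the first principal component, with a score of 8.60. The other 5 tumours scored 14.03 to 18.81, and skin libraries scored -19.82 to -12.34. Of the 6 members, 3 were above the floor in all 12 libraries (both arms of miR-338 and miR-128-3p), miR-9-5p was above it in 11 and miR-219-5p in 9. miR-9-3p was at the floor in all 12 libraries, so the table gives no level for it. The other 5 members passed the filter of at least 2 libraries above the floor and were tested among 544 miRNAs. By mean level over the libraries, miR-338-3p ranked 143, miR-128-3p 186, miR-338-5p 294, miR-9-5p 296 and miR-219-5p 421 among the 544, whose mature lengths are 21 to 23 bases for the members.

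**Figure D1:**
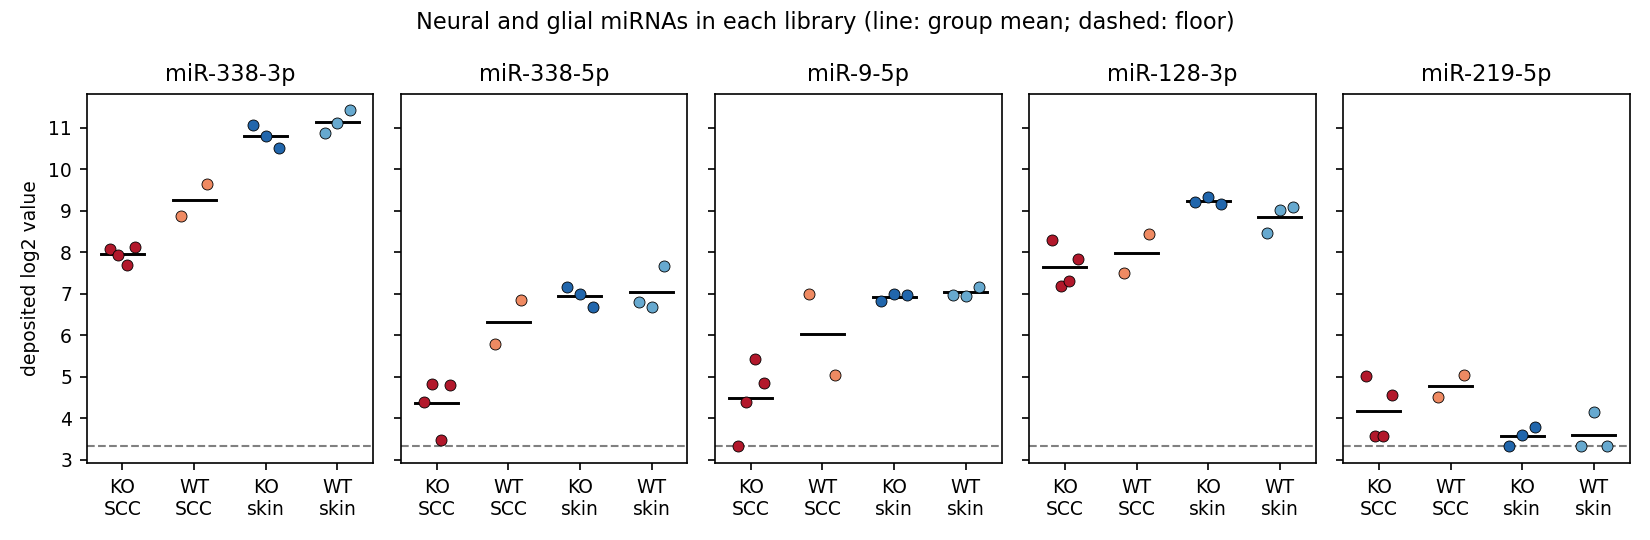
Deposited log2 value (vertical axis) of the 5 members above the floor, in KO SCC, WT SCC, KO skin and WT skin. Points are libraries, black lines are group means and the dashed line is the floor at 3.32. All 6 tumours lie below all 6 skin libraries for miR-338-3p and miR-128-3p, and miR-219-5p lies near the floor in skin.

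In SCC the guide miR-338-3p was about 5-fold lower than in skin, miR-128-3p about 2-fold lower, and miR-9-5p and miR-338-5p about 3-fold lower, while miR-219-5p, close to the floor, was 1.86-fold higher. Averaged over the genotypes, limma with Benjamini-Hochberg adjustment over the 544 miRNAs called all 5 tested members, 4 lower and 1 higher. The 4 include both arms of the 1 miR-338 hairpin. In this comparison 41.9% of the 544 were called, 21.5% lower and 20.4% higher. The median change was -1.65 (log2) over the 5 members and 0.04 over all tested miRNAs. In bulk tissue, fewer cells of a type and less RNA per cell cannot be told apart.

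miR-338-3p, the glial miRNA that promotes oligodendrocyte maturation, had the clearest difference. Its log2 values were 8.07, 7.93, 7.69 and 8.13 in KO SCC, 8.86 and 9.63 in WT SCC, 11.05, 10.80 and 10.51 in KO skin, and 10.87, 11.10 and 11.42 in WT skin. The highest tumour, WT SCC replicate 2, was still 0.88 below the lowest skin library. The 4 KO tumours were also all below both WT tumours. Among all tested miRNAs, 11.6% had all 6 tumours below all 6 skin libraries and 10.5% had them all above. The averaged tumour effect was -2.36 ± 0.21 (log2, SE), or 5.12-fold lower (adjusted p = 1.3e-05), and 22 of the 544 tested miRNAs fell more.

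Within each genotype miR-338-3p was again lower in SCC. In knockout mice it averaged 7.96 ± 0.20 (SD, n = 4) in SCC and 10.79 ± 0.27 (SD, n = 3) in skin, a difference of -2.83 ± 0.26 (SE) or 7.12-fold (adjusted p = 4.2e-05). In WT mice it averaged 9.25 ± 0.55 (SD, n = 2) in SCC and 11.13 ± 0.28 (SD, n = 3) in skin, a difference of -1.88 ± 0.32 (SE) or 3.69-fold (adjusted p = 0.00256). With the WT groups fitted alone, the WT difference was the same size and no longer called (adjusted p = 0.0600).

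The passenger arm miR-338-5p comes from the same hairpin. Its log2 values were 4.40, 4.82, 3.47 and 4.81 in KO SCC, 5.80 and 6.86 in WT SCC, 7.16, 7.004 and 6.68 in KO skin, and 6.79, 6.69 and 7.67 in WT skin. WT SCC replicate 2, at 6.86, was inside the skin range, and the other 5 tumours were below it. KO SCC replicate 3 was only just above the floor. The averaged effect was -1.65 ± 0.34 (SE), or 3.14-fold lower (adjusted p = 0.00255). In knockout mice the difference was -2.58 ± 0.43 (adjusted p = 0.00118), and in WT mice -0.73 ± 0.52 (adjusted p = 0.376), which was not called.

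The hairpin itself shows how both arms relate. In the 98 bases of the RefSeq precursor, with both mature arms in capitals, miR-338-5p spans positions 26 to 47 and miR-338-3p positions 61 to 82, each 22 bases long.
mir-338 hairpin: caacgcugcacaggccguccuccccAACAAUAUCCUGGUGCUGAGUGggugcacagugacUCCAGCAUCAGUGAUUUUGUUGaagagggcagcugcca
The difference of the log2 values, miR-338-3p minus miR-338-5p, describes the balance of the arms within a library, and a factor common to a library cancels in it. A normalization that gives libraries nearly the same set of values, as these look to have had, does not cancel. No other scaling was tried for the difference. The difference was 3.67, 3.11, 4.22 and 3.33 in KO SCC, 3.06 and 2.78 in WT SCC, 3.89, 3.80 and 3.83 in KO skin, and 4.08, 4.41 and 3.75 in WT skin. The guide arm therefore stood above the other arm in every library, and 5 of the 6 tumours had a smaller excess than any skin library, with KO SCC replicate 3 the exception.

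Converted from the mean log2 difference, which makes it a geometric mean, the excess of the guide arm was 11.99-fold in KO SCC and 7.58-fold in WT SCC. It was 14.3-fold in KO skin and 16.9-fold in WT skin. Averaged over genotypes, the excess was lower in SCC by 0.71 on the log2 scale (two-sided exact permutation test within genotype, p = 0.0314 over 350 arrangements, 1 value tested). The mean log2 excess was 3.58 in KO SCC and 3.84 in KO skin, and 2.92 in WT SCC (n = 2) and 4.08 in WT skin. In KO SCC miR-338-5p lay near the floor, which limits the ratio there. The averaged result rests on few libraries. Leaving out any WT library, KO SCC replicate 2 or KO SCC replicate 4 gave exact permutation p-values of 0.05 to 0.065, with differences of -0.79 to -0.62.

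**Figure D2:**
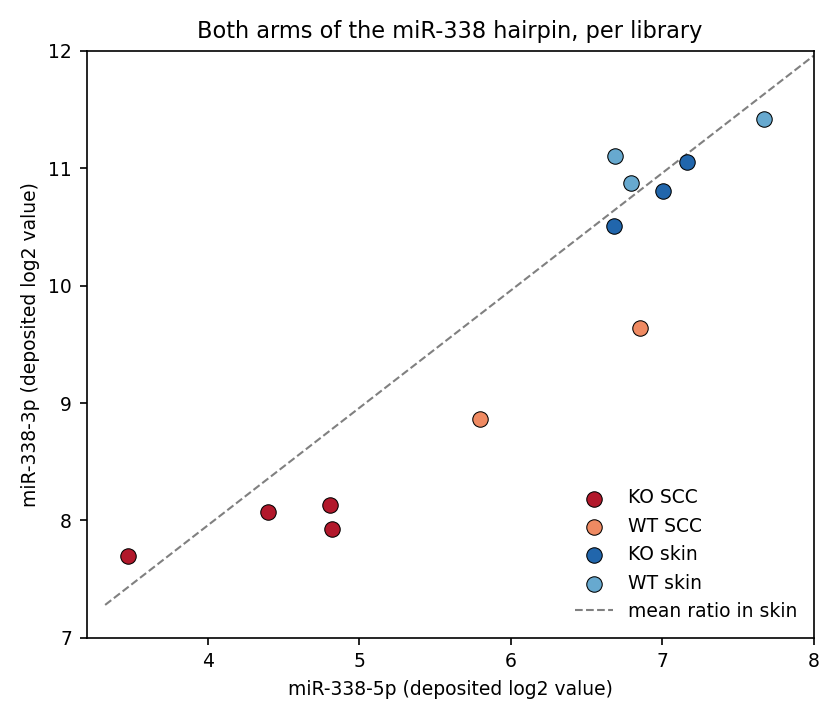
miR-338-3p (vertical axis) against miR-338-5p (horizontal axis), both as deposited log2 values, with 1 point per library in KO SCC, WT SCC, KO skin and WT skin. The dashed line is the mean ratio of the arms in skin, taken on the log2 scale. KO tumours sit at the lower left and 5 of 6 tumours lie below the line, with KO SCC replicate 3 above it.

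The opposite strand of the same locus encodes miR-3065, shown because it pairs with the guide arm. The mature miR-3065-5p is complementary to 21 bases of miR-338-3p.
miR-3065-5p: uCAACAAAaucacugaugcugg
miR-3065-5p was above the floor in 2 of 12 libraries, with log2 values of 5.01 in KO SCC replicate 1 and 4.96 in KO SCC replicate 3, and miR-3065-3p was at the floor in all 12. It was not called in any comparison (0.83 ± 0.40, SE, in KO SCC minus KO skin, adjusted p = 0.132). The sources used here do not state whether counting used the strand.

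miR-219-5p, the other oligodendrocyte miRNA, went the other way and was scarce throughout. Its log2 values were 5.01, 3.58, 3.56 and 4.55 in KO SCC and 4.52 and 5.04 in WT SCC. Skin gave 3.32, 3.59 and 3.78 in KO mice and 3.32, 4.15 and 3.32 in WT mice, where 3.32 is the floor. It was above the floor in all 6 tumours and in 3 of 6 skin libraries, and 4 of 6 tumours exceeded every skin library. On the linear scale the highest value was 33.0, in WT SCC replicate 2, so all of these levels lie near the lowest the table reports. The averaged effect was 0.90 ± 0.31 (SE, adjusted p = 0.0369). It depends on single libraries, since leaving out any 1 of 8 of the 12 ended the call (adjusted p = 0.0506 to 0.118). These were KO SCC replicate 4, both WT SCC, all 3 KO skin libraries, and WT skin replicates 1 and 3. The values were 0.61 ± 0.40 in knockout mice (adjusted p = 0.261) and 1.18 ± 0.47 in WT mice (adjusted p = 0.113), and neither was called.

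The 3p products of the miR-219 hairpins were scarce too. In SCC miR-219-1-3p had a mean log2 value of 3.51, below the 4.38 of miR-219-5p. In skin its mean was 3.74, slightly above the 3.58 of miR-219-5p. miR-219-1-3p was above the floor in 6 libraries, with log2 values of 3.32, 3.44, 3.40 and 4.25 in KO SCC, 3.32 in both WT SCC, 3.32, 3.78 and 3.32 in KO skin, and 3.32, 4.06 and 4.66 in WT skin. Its averaged difference was -0.28 ± 0.25 (SE, adjusted p = 0.396). miR-219-2-3p was at the floor in all 12 libraries.

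miR-9-5p, the neural progenitor miRNA, was nearly level across skin and scattered across tumours. Its log2 values were 3.32, 4.40, 5.42 and 4.84 in KO SCC, 6.997 and 5.04 in WT SCC, 6.81, 7.004 and 6.97 in KO skin, and 6.97, 6.95 and 7.16 in WT skin. The 6 skin libraries had a mean of 6.98 ± 0.11 (SD), while the 6 tumours ran from the floor in KO SCC replicate 1 to the skin range in WT SCC replicate 1. All 4 KO tumours were below all KO skin libraries. The averaged effect was -1.72 ± 0.41 (SE), or 3.30-fold lower (adjusted p = 0.00663). In knockout mice it was -2.44 ± 0.53 (adjusted p = 0.00478), which understates the change because 1 tumour was at the floor.

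In WT mice miR-9-5p differed by -1.01 ± 0.64 (SE, adjusted p = 0.319), which was not called, and the 2 tumours disagreed. The WT difference was -0.03 with WT SCC replicate 1 alone and -1.99 with WT SCC replicate 2 alone (adjusted p = 0.121). WT SCC replicate 1 was the lower of the 2 for both arms of miR-338, and the higher for miR-9-5p.

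miR-128-3p, the neuronal miRNA, had the smallest called decrease. Its log2 values were 8.29, 7.18, 7.30 and 7.84 in KO SCC, 7.51 and 8.45 in WT SCC, 9.20, 9.33 and 9.16 in KO skin, and 8.46, 9.01 and 9.09 in WT skin. All 6 tumours were below all 6 skin libraries, but WT SCC replicate 2 and WT skin replicate 1 were only 0.0092 apart. The averaged effect was -1.23 ± 0.26 (SE), or 2.34-fold lower (adjusted p = 0.00341). The decrease was called in knockout mice, at -1.58 ± 0.34 (adjusted p = 0.00456), and not in WT mice, at -0.88 ± 0.40 (adjusted p = 0.171).

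Of the passenger products of miR-128, miR-128-2-5p was at the floor in all 12 libraries. miR-128-1-5p, which comes from the R3hdm1 locus only, was above the floor in 10. Its log2 values were 3.81, 3.51, 3.43 and 3.93 in KO SCC, 3.32 and 4.49 in WT SCC, 5.28, 4.05 and 5.04 in KO skin, and 3.32, 4.41 and 4.85 in WT skin. The groups overlapped in WT mice, and the averaged difference, -0.70 ± 0.35 (SE), was not called (adjusted p = 0.136).

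By genotype, 4 of the 5 tested members, among them both arms of miR-338, were called lower in KO SCC than in KO skin. There 34.2% of the 544 were called, 18.2% lower and 16% higher. In WT mice 1 of 5, miR-338-3p, was called lower, where 18.2% of the 544 were called, 9.38% lower and 8.82% higher. In knockout mice all tumours lay below all skin libraries for those same 4 members, an order found for 20.2% of the tested miRNAs (all above for 17.8%). In WT mice this held for miR-338-3p and miR-128-3p (23.2% of those tested), while miR-219-5p had both tumours above all skin libraries (20.6%). The median change over the 5 was -2.44 in knockout and -0.88 in WT mice, against 0.05 and 0 over all tested miRNAs. A call in 1 genotype and not in the other does not show a difference between them. The interaction, which is the tumour effect in knockout mice less that in WT mice, was -1.85 ± 0.67 for miR-338-5p (unadjusted p = 0.0186, adjusted p = 0.504) and -0.95 ± 0.41 for miR-338-3p (unadjusted p = 0.0410, adjusted p = 0.560). It was -1.43 ± 0.83 for miR-9-5p, -0.70 ± 0.53 for miR-128-3p and -0.57 ± 0.62 for miR-219-5p, with adjusted p-values of 0.715 to 0.851. For miR-9-5p it ran between -0.45, with WT SCC replicate 1 left out, and -2.40, with WT SCC replicate 2 left out. None was called, and limma called 0% of the 544 miRNAs in this contrast (41 had an unadjusted p under 0.05).

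**Figure D3:**
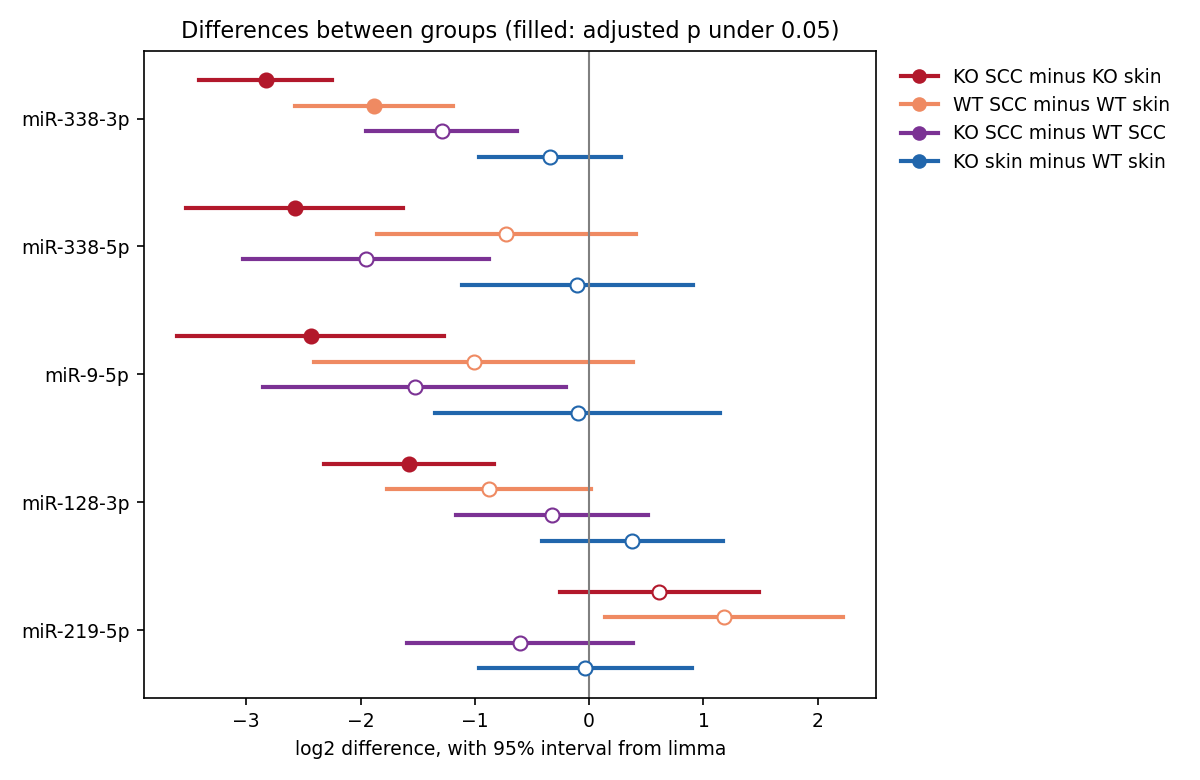
Log2 difference (horizontal axis) of each member in KO SCC minus KO skin, WT SCC minus WT skin, KO SCC minus WT SCC, and KO skin minus WT skin. Bars are 95% intervals from limma without adjustment for multiple tests, and filled points have an adjusted p under 0.05. The filled points are the 4 decreases in knockout mice and that of miR-338-3p in WT mice.

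Between the tumours, both arms of miR-338 separated the genotypes without passing the adjusted threshold. In KO SCC minus WT SCC, miR-338-3p differed by -1.29 ± 0.30 (SE, 95% interval -1.95 to -0.63) and miR-338-5p by -1.95 ± 0.49 (95% interval -3.03 to -0.88), both with an adjusted p of 0.113. Without 1 library the difference ranged from -1.68 to -0.91 for miR-338-3p and from -2.48 to -1.43 for miR-338-5p. For each arm all 4 KO tumours lay below both WT tumours, which held for 4.23% of the tested miRNAs (all above for 6.07%). Among these were also miR-204-5p, with a larger difference (-2.32 ± 0.56, adjusted p = 0.113), miR-211-5p and miR-218-5p. miR-9-5p differed by -1.53 ± 0.60 (adjusted p = 0.455), with 3 of 4 KO tumours below both WT tumours. With WT SCC replicate 1 left out the value was -0.55, and with replicate 2 left out it was -2.50. miR-219-5p (-0.60 ± 0.45) and miR-128-3p (-0.33 ± 0.38) were not called either (adjusted p = 0.714 and 0.828). limma called 0 members and 0.184% of the 544 here, while 3 of 5 members and 8.46% of all had an unadjusted p under 0.05. These 3 were miR-9-5p and both arms of miR-338, which share 1 hairpin and are not separate loci.

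In untreated skin the genotypes were close for these miRNAs. In KO skin minus WT skin, miR-338-3p differed by -0.34 (95% interval -0.96 to 0.28), miR-338-5p by -0.10 (-1.12 to 0.91), miR-9-5p by -0.10 (-1.35 to 1.15), miR-219-5p by -0.03 (-0.97 to 0.90) and miR-128-3p by 0.38 (-0.42 to 1.17), on the log2 scale. None was called, with 0% of the 544 called by limma and 0 of 5 members at an unadjusted p under 0.05 (31 of 544, or 5.7%, were). For miR-128-3p all 3 KO skin libraries lay above all 3 WT skin libraries, by as little as 0.07, an order seen for 6.8% of the tested miRNAs (all below for 5.15%). The intervals still allow differences of the size of some tumour effects.

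Taking the group means in order, miR-338-3p, miR-338-5p and miR-9-5p were each lowest in KO SCC, then WT SCC, then KO skin, and highest in WT skin. The genotypes, which are the neighbours within tumours and within skin, did not pass the adjusted test in either pair, and WT SCC was not tested against KO skin. miR-128-3p had the order KO SCC, WT SCC, WT skin, KO skin, and miR-219-5p the order KO skin, WT skin, KO SCC, WT SCC.

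Other miRNAs known from the nervous system were read beside the members. Of 14 on this list, 9 were tested. miR-124-3p, the defining neuronal miRNA, was at the floor in all 12 libraries, as were miR-124-5p, miR-137-3p, miR-7b-5p and miR-129-1-3p. Averaged over genotypes, 5 of the 9 were called higher in SCC and 1 lower, where 41.9% of all tested miRNAs were called, 20.4% higher and 21.5% lower. Of the 9, miR-129-5p, miR-153-3p and miR-129-2-3p were at the floor in all 6 skin libraries, so they were tested only because of the tumours and could not come out lower. The summed linear level of the list was 4779 to 10860 in KO SCC, 5680 to 8332 in WT SCC, 3155 to 4048 in KO skin and 3436 to 3833 in WT skin. Most of that sum is miR-138-5p and miR-149-5p in tumours, and miR-218-5p and miR-149-5p in skin, so it does not describe the list as a whole.

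The single values on that list differ widely. miR-218-5p, a motor neuron miRNA, was the 1 decrease, at -1.78 ± 0.28 (SE, adjusted p = 0.000533), with -2.37 in knockout and -1.18 in WT mice, where it was not called (adjusted p = 0.0859). miR-138-5p rose by 2.66 ± 0.56 (adjusted p = 0.00308), although KO SCC replicate 2, at 8.74, lay inside the skin range of 8.39 to 9.01. miR-149-5p rose by 1.55 ± 0.21 (adjusted p = 0.000172), with 6 of 6 tumours above all skin libraries.

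miR-212-3p rose by 1.47 ± 0.42 (adjusted p = 0.0172; 0.0718 without WT SCC replicate 2) and its cluster partner miR-132-3p by 0.80 ± 0.28 (adjusted p = 0.0413), a call that ended when any 1 of 9 libraries was left out. miR-129-5p was above the floor only in KO SCC replicate 2 (4.24) and in WT SCC (6.24 and 4.49). Its averaged rise was 1.14 ± 0.29 (adjusted p = 0.00889), or 0.70 without WT SCC replicate 1. miR-7a-5p (1.11 ± 0.51), miR-153-3p (0.94 ± 0.48) and miR-129-2-3p (0.59 ± 0.30) were not called. For miR-153-3p and miR-129-2-3p, WT SCC replicate 1 was the highest library, at 7.05 and 5.58, and with WT SCC replicate 2 left out these and miR-7a-5p were all called.

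Melanocytes, like Schwann cells, come from the neural crest. Of 4 miRNAs on the melanocyte list, 2 were tested, miR-204-5p and miR-211-5p. Averaged over genotypes both were called lower in SCC, as were 4 of the 5 tested members and 21.5% of all tested miRNAs. The 3p arms of these 2 hairpins stayed at the floor in all 12 libraries. The averaged tumour effects were -3.94 ± 0.39 for miR-204-5p (SE, adjusted p = 2.6e-05) and -3.002 ± 0.68 for miR-211-5p (adjusted p = 0.00479), which was -3.86 with WT SCC replicate 2 left out and -2.15 with WT SCC replicate 1 left out. In WT mice miR-204-5p was called (-3.03 ± 0.59, adjusted p = 0.00648) and miR-211-5p was not (-2.02 ± 1.04, adjusted p = 0.221). The summed linear level of the list was 108 to 213 in KO SCC, 369 to 1723 in WT SCC, 2346 to 6516 in KO skin and 4648 to 6180 in WT skin. Its highest tumour was WT SCC replicate 2, as for both arms of miR-338, miR-128-3p and miR-218-5p, but not miR-9-5p. The same tumour was the highest for miR-219-5p, which was higher in SCC than in skin. Of the striated muscle miRNAs, it was the highest tumour for miR-1a-3p (8.62), miR-133a-3p (14.90), miR-133b-3p (8.99) and miR-206-3p (6.19, all log2), but not miR-499-5p. This peak is therefore not particular to the melanocyte list. That tumour also lay nearest to skin on the first principal component. The part of melanocytes in the members' values was not tested.

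**Figure D4:**
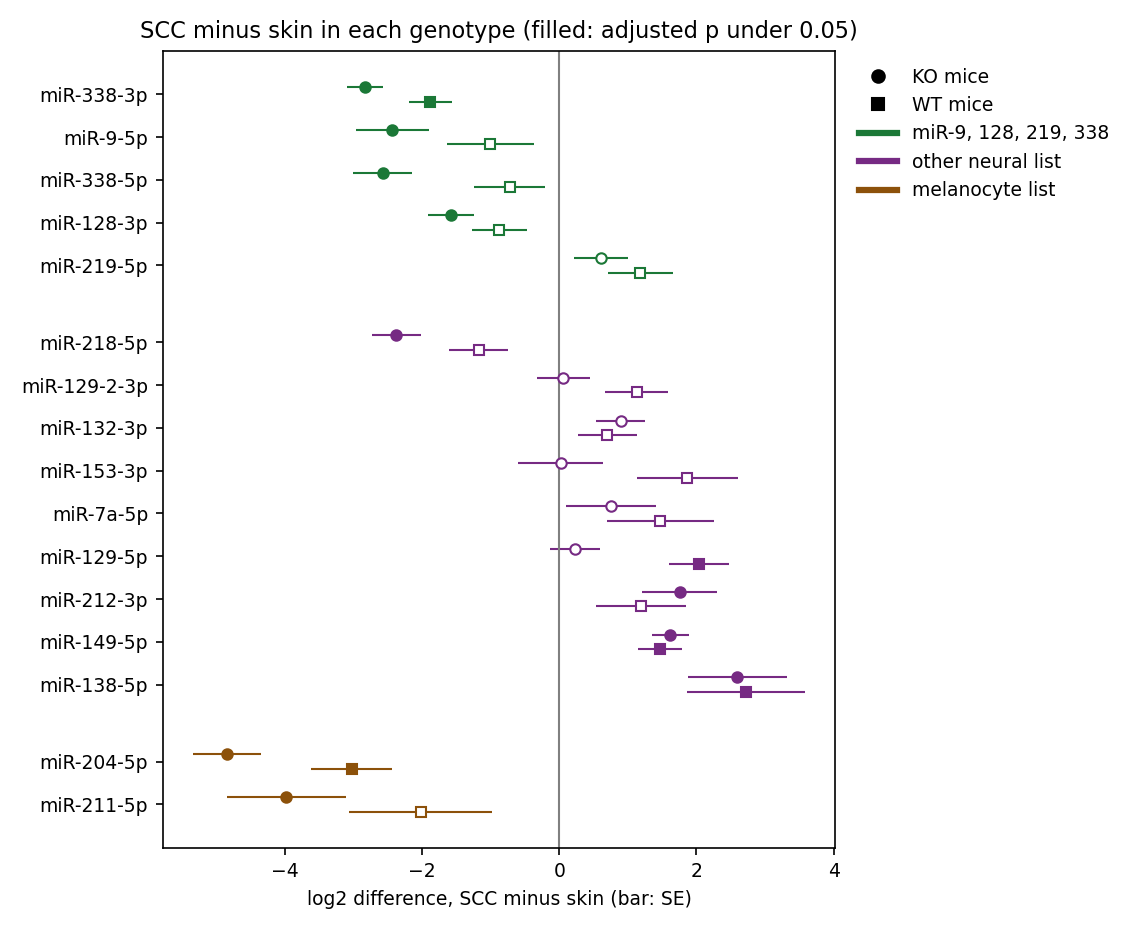
Log2 difference SCC minus skin (horizontal axis, bars are SE) in KO mice (circles) and WT mice (squares) for the members, the other neural miRNAs and the melanocyte miRNAs. Filled symbols have an adjusted p under 0.05. The miR-338, miR-9 and miR-128 rows lie left of 0 with miR-218-5p and the melanocyte miRNAs, and most other neural miRNAs lie right of 0. Among these, miR-129-5p, miR-153-3p and miR-129-2-3p were at the floor in all skin libraries and could not lie left of 0.

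Other tissue lists were read beside the members. Averaged over genotypes, 4 of 5 striated muscle miRNAs were lower and 0 higher, with a summed linear level of 4750 to 16070 in KO SCC, 5914 to 31460 in WT SCC, 66540 to 90050 in KO skin and 73110 to 79740 in WT skin. Most of that sum is miR-133a-3p. The fifth, miR-499-5p, was at the floor in all 6 skin libraries and could not come out lower. It was 1.20 averaged, not called, and was called higher in knockout mice (1.99 ± 0.71, SE, adjusted p = 0.04998). The keratinocyte list had 1 of 3 higher and 2 lower, at 309300 to 567000 in KO SCC, 389200 to 435400 in WT SCC, 267100 to 347100 in KO skin and 273900 to 383700 in WT skin. Nearly all of that sum is miR-205-5p and miR-203-3p, while the third, miR-184-3p, had log2 values of 3.61 to 5.61 in KO SCC, 4.49 and 4.52 in WT SCC, 6.201 to 9.13 in KO skin and 6.12 to 7.33 in WT skin. None of the 5 epithelial miR-200 family members was called. Their summed level was 8567 to 120700 in KO SCC, 61750 to 75660 in WT SCC, 56910 to 63220 in KO skin and 61890 to 90170 in WT skin. The low value is KO SCC replicate 2, which was the lowest of the 12 libraries for each of the 5 (miR-141-3p at 11.73, against 15.23 to 16.17 in the other KO tumours). With this tumour left out, the averaged effect was -2.35 for miR-338-3p, -1.73 for miR-338-5p, -1.71 for miR-9-5p, -1.15 for miR-128-3p and 0.997 for miR-219-5p, all still called. Of the other lists, 2 of 4 leukocyte, 2 of 4 red cell and 1 of 2 endothelial miRNAs were higher, and 2 of 5 stromal miRNAs were lower, beside 20.4% of all tested miRNAs higher and 21.5% lower. Counts over so few miRNAs are a description of each list. The part of any of these in the members' values was not tested.

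The miRNAs whose pattern was most like a member's were ranked by Pearson's r of log2 values over the 12 libraries, among the other 314 miRNAs above the floor in all of them. These values describe the libraries, which share the split between tumours and skin. miR-338-3p was most like miR-204-5p (r = 0.990), miR-10b-5p (0.976) and miR-30a-3p (0.963), and least like miR-93-5p (-0.981). Its own passenger miR-338-5p ranked 6 (0.939). miR-338-5p was most like miR-338-3p (0.939), miR-204-5p (0.932) and miR-181b-5p (0.913), and least like miR-93-5p (-0.930). miR-128-3p was most like miR-378c (0.970), miR-486-3p (0.929) and miR-3107-3p (0.923), and least like miR-151-3p (-0.940).

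Taking each library's deviation from its group mean removes the split between groups. miR-338-3p then was most like miR-30c-1-3p (r = 0.943), miR-326-3p (0.914) and miR-194-5p (0.850), and miR-338-5p ranked 6 (0.832). miR-338-5p was most like miR-326-3p (0.912), miR-676-3p (0.872) and let-7i-3p (0.856). miR-128-3p was again most like miR-378c (0.942), followed by miR-16-1-3p (0.891) and miR-378a-3p (0.888). miR-204-5p was not among the 3 most like either arm of miR-338 once the group means were removed. miR-9-5p and miR-219-5p were not ranked, because floor values would set part of their r.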

How the data were processed

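Small RNA was sequenced from 12 samples, and the authors deposited 1 table of log2 values. Reads were placed on mm10, as the submitters' processing notes list it. How reads were aligned, counted and normalized, and against which miRBase release, is not given in the sources used here. The deposited log2 values look quantile normalized (columns differ by at most 0.147 at any of the 370 highest ranks; linear column sums 6065014 to 6065621) and floored at a linear value of 10, which leaves the depth of each library unknown and allows no interval for counting error. Of 1251 rows, 647 never rose above the floor, 60 did in 1 library, and the 544 above it in at least 2 were tested.

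The log2 values were modelled in limma 3.58.1 (R 4.3.3) with 1 mean per group (8 residual degrees of freedom; trended, robust variances), with Benjamini-Hochberg adjustment over the 544 within each contrast and a threshold of 0.05. Arm balance was tested by exact permutation of tissue within genotype. Replicate numbers follow accession order and pair no samples. Members and lists were chosen with earlier results of these data known. Named miRNAs are the members, other products of their hairpins, the 3 most like and the least like each member, and the tested members of the other neural and melanocyte lists.

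Alternatives were 2 other scalings, pseudocounts of 1 and 10, filters of 1 and 6 libraries, and moderated variances without the trended and robust options. Library weights, fits of the compared groups alone, omission of the 5 most abundant miRNAs, and leaving out each library were also used.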

Additional observations from a re-analysis of the deposited data

How the results depend on the processing

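Under 21 or 22 alternatives per comparison, the number of members called stayed within 1.5 times the count reported, with 1 exception. In WT SCC against WT skin, fitting the WT groups alone called 0 members in place of 1, since miR-338-3p kept its size with an adjusted p of 0.0600. Of 650 single-miRNA values, 635 kept their direction and call, 9 lost the call and 6 turned sign, and 0 gained a call. The 9 were that value and 8 of miR-219-5p in the averaged comparison, which without 1 library ranged from 0.76 to 1.03. The 6 sign changes were all in uncalled differences between genotypes. In KO against WT skin, miR-338-5p was 0.033 with library weights, and without 1 library it ranged from -0.28 to 0.21 and miR-219-5p from -0.17 to 0.24. In KO against WT SCC, miR-128-3p ranged from -0.79 to 0.14 without 1 library. The cause was not tested. Without 1 library, the arm balance of miR-338 ranged from -0.81 to -0.62, with exact p = 0.005 to 0.065, and with a pseudocount of 10 it was -0.95 (p = 0.00286). The count of members called without 1 library was 4 to 5 averaged, 4 in knockout mice and 1 in WT mice. Median-ratio scaling gave a median over all tested miRNAs of 0.12, in place of 0.05, in KO SCC against KO skin, and of 0.07, in place of 0.04, in the averaged comparison. No paired analysis was possible because the labels give no replicate numbers that the groups share. Signal over the floor limits miR-219-5p, miR-9-5p in KO SCC and miR-338-5p in KO SCC.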
